A study of Mus musculus with 21 samples.

Results

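Transcripts of a set of 10 genes, named for eosinophil granules and receptors, were followed through inflammatory monocytes (IMs) sorted from mouse bone marrow (BM) and from lung tumors. The genes were those for the granule proteins Prg2, Prg3 and Epx, the ribonucleases Ear1, Ear2, Ear6 and Ear10, the receptors Il5ra and Ccr3, and the enzyme Alox15, and all 10 were found by symbol among the 23420 genes of the count table. The set was chosen by measured values of the same libraries, namely fold changes between tumor and marrow: an earlier account of these data had placed Prg2 and Prg3 among the genes whose difference between tumor and marrow departed most between the tumor models, and the 10 genes form the eosinophil set around them. For that reason the comparisons of LN2E1 primary tumors with FVB marrow, of LN4K1 lungs with DBA2 marrow, of the marrows with each other, and of the models with each other are given as description, without p-values for the 10 genes. The lymph node libraries played no role in that choice, and comparisons with them are given with p-values. These comparisons share their FVB marrow or primary tumor libraries with those used in the choice. Their p-values for the 10 genes are therefore not independent of it.

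RNA was sequenced in 21 libraries in 5 groups. BM IMs came from tumor-free mice of the strains FVB (n = 3) and DBA2 (n = 3). Tumor-infiltrating IMs (TIMs) of FVB mice came from primary lung tumors (n = 5) and lymph node metastases (n = 5) after LN2E1 squamous lung cancer cells, 500000 per mouse, had been placed in the lung. TIMs of DBA2 mice came from lungs with tumors (n = 5) after 300000 LN4K1 cells, also a squamous line, had been given by vein. Each tumor model thus had its own cell line, strain and injection route, and these cannot be told apart. No group carried an engineered allele or a drug treatment in the labels, which gave neither age nor sex. The study's methods call the samples of a group technical replicates, so p-values measure the spread between these libraries, which may be smaller than that between mice.

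Eosinophils are granulocytes that mature in the marrow under IL-5 and migrate toward eotaxins. Their granules hold major basic protein (the product of Prg2), a homolog of it made from Prg3, eosinophil peroxidase (Epx) and small ribonucleases of the Ear family, and granule transcripts are at their highest in marrow precursors, before the granules fill. Il5ra encodes the IL-5 binding chain of the IL-5 receptor, Ccr3 the eotaxin receptor, and Alox15 a lipoxygenase that oxygenates arachidonic acid and is also made by macrophages. Siglec-F, a surface lectin, is shared by eosinophils and alveolar macrophages.

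The total count of a library lay between 80772922 and 101043568, so that 3 reads, the most that 0 counted reads allow, stood for between 0.0268 and 0.0405 CPM, the count per library scaled to a common total. This limit covers counting error, not losses during amplification. Cells had been enriched with a monocyte kit and sorted as CD45+ CD11b+ Ly6G- Ly6C high; the study's methods add exclusion of Siglec-F+ cells, whereas the antibody list in the sample labels names no Siglec-F antibody. All 8 markers of IMs were detected in every group. Ly6c2, of the sort's Ly6C antigen, had group means between 1245 and 3023 CPM and fell from marrow to TIMs in all 3 comparisons, Ccr2 had means between 714 and 2664 CPM, and Lyz2, made by myeloid cells in general, had means between 34280 and 75890 CPM. LN4K1 lung replicate 3 and lymph node replicate 1 had the fewest genes with at least 10 reads in their groups, 12015 and 11047. For the 10 genes, results that change without 1 of these libraries are given with both values. The marker lists were fitted with all libraries of a comparison only. In bulk RNA, fewer cells of a type and less RNA per cell cannot be told apart.

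Ear1, Ear2 and Ear10 are near copies of each other on chromosome 14, which matters for how their counts can be read. The first 150 coding bases of these genes and of Ear6, from the GENCODE vM21 transcripts on GRCm38, are shown to make that visible. Ear1 lay at chr14:43819260-43819409 on the minus strand, Ear2 at chr14:44102887-44103036 on the plus strand, Ear10 at chr14:43923219-43923368 on the minus strand and Ear6 at chr14:51853998-51854147 on the plus strand. Capitals mark bases that differ from Ear1 at the same position.
Ear1: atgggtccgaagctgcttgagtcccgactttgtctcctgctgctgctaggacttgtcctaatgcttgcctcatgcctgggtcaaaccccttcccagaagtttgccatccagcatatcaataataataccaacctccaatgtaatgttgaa
Ear2: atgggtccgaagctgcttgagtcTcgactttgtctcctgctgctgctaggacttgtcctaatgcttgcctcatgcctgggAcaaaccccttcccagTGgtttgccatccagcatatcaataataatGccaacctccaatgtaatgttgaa
Ear10: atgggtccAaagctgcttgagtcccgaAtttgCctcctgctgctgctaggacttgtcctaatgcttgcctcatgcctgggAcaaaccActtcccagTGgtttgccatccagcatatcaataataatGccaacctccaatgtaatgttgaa
Ear6: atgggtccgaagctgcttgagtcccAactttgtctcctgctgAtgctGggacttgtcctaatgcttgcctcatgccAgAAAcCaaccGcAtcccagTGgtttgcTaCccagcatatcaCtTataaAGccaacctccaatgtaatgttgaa
Ear2 differed from Ear1 at 5 of the 150 bases, Ear10 at 8 and Ear6 at 18. Over the whole coding sequence, identity was 95.1% between Ear1 and Ear2, 94.4% between Ear1 and Ear10, 97.0% between Ear2 and Ear10, and between 87.3% and 87.6% between Ear6 and each of those 3. Of the windows of 100 bases in the Ear1 transcript, 23.9% also occurred unchanged in a transcript of another gene, against 13.9% for Ear2 and 24.2% for Ear10. Ear6, Prg2, Prg3 and Epx had no such window. How reads that fit several genes were counted is not given in the sources used here, so the split between Ear1, Ear2 and Ear10 is uncertain.

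Promoters of 8 of the 10 genes were matched in the RefSeq table (GRCm38.p6), and Prg2 and Alox15 were not among them. The 250 bases before the start were searched on both strands for GATAA, the core that GATA factors bind, and for TTGCNNAA, the core that C/EBP factors bind, because these families drive eosinophil development. The promoters of Prg3, at chr2:84987965-84988214 on the plus strand, and of Epx, at chr11:87875537-87875786 on the minus strand, are shown because these genes moved together across the libraries. Capitals mark GATAA on the opposite strand.
Prg3: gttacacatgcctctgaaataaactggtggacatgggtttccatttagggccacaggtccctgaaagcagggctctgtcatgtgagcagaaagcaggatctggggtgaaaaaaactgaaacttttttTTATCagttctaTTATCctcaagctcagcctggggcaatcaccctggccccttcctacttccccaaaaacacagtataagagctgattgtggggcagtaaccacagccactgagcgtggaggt
Epx: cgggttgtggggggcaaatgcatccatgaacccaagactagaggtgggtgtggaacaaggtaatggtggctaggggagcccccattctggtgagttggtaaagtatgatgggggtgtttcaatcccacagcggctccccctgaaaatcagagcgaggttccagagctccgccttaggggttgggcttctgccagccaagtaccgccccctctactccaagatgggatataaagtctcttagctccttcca
Prg3 held GATAA at 2 places, from 123 to 119 and from 111 to 107 bases before the start, and Epx held neither motif. Il5ra and Ccr3 each held GATAA at 1 place, and Ear1, Ear2 and Ear10 each held TTGCNNAA at 1 place, between 94 and 83 bases before the start. Among all 32851 promoters of the table, 22.6% held GATAA and 9.56% held TTGCNNAA in the same stretch, so a match is common and describes the letters only.

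Prg2 was the most abundant of the 10 genes in marrow and nearly absent from LN2E1 TIMs. It lies at chr2:84980461-84983632, and its exons overlapped those of no other gene. FVB BM IMs had 763, 416 and 858 CPM, and DBA2 BM IMs had 862, 524 and 344 CPM. The raw counts behind the lowest and highest of these 6 libraries were 32560 and 96034. Primary tumor TIMs had 0, 0, 19, 2 and 1 reads, and lymph node TIMs had 1, 0, 0, 0 and 0 reads. LN4K1 lung TIMs had 1.07, 8.55, 0.945, 59.6 and 1.62 CPM, so every one of them lay above every LN2E1 library and under every marrow library. Group means fell in the order FVB marrow, DBA2 marrow, LN4K1 lung, primary tumor, lymph node, and the ranges overlapped between the marrows and between primary tumor and node.

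Prg3, at chr2:84988215-84993886 and thus next to Prg2, followed the same order at a lower level. FVB BM IMs had 53.2, 29.8 and 65.2 CPM and DBA2 BM IMs had 46.2, 30.8 and 16.9 CPM. LN4K1 lung TIMs had 0, 28, 0, 231 and 0 reads, primary tumor TIMs 0, 0, 0, 0 and 3 reads, and all 5 lymph node libraries 0 reads. Both tumor groups of LN2E1 were thus at or under the limit in every library, and of all TIMs only LN4K1 lung replicates 2 and 4 stood above it. Per kilobase of exon, mean Prg2 in FVB BM IMs was 810 CPM and mean Prg3 was 52.1 CPM.

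Epx, at chr11:87864000-87875536, encodes the peroxidase of the granule. FVB BM IMs had 115, 82.0 and 209 CPM, and DBA2 BM IMs had 187, 128 and 66.3 CPM. Primary tumor TIMs had 29, 6, 0, 15 and 25 reads, lymph node TIMs 1, 0, 0, 0 and 4 reads, and LN4K1 lung TIMs 0, 195, 1, 282 and 15 reads. Marrow was above every TIM library, whereas the 3 tumor groups overlapped each other. In marrow, Epx had between 15% and 24.4% as many reads as Prg2 and Prg3 between 4.91% and 7.60%. In LN4K1 lung TIMs the corresponding shares ran from 0% to 24.1% and from 0% to 4.01%, and were 24.1% and 3.46% in replicate 2 and 4.89% and 4.01% in replicate 4.

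**Figure D1:**
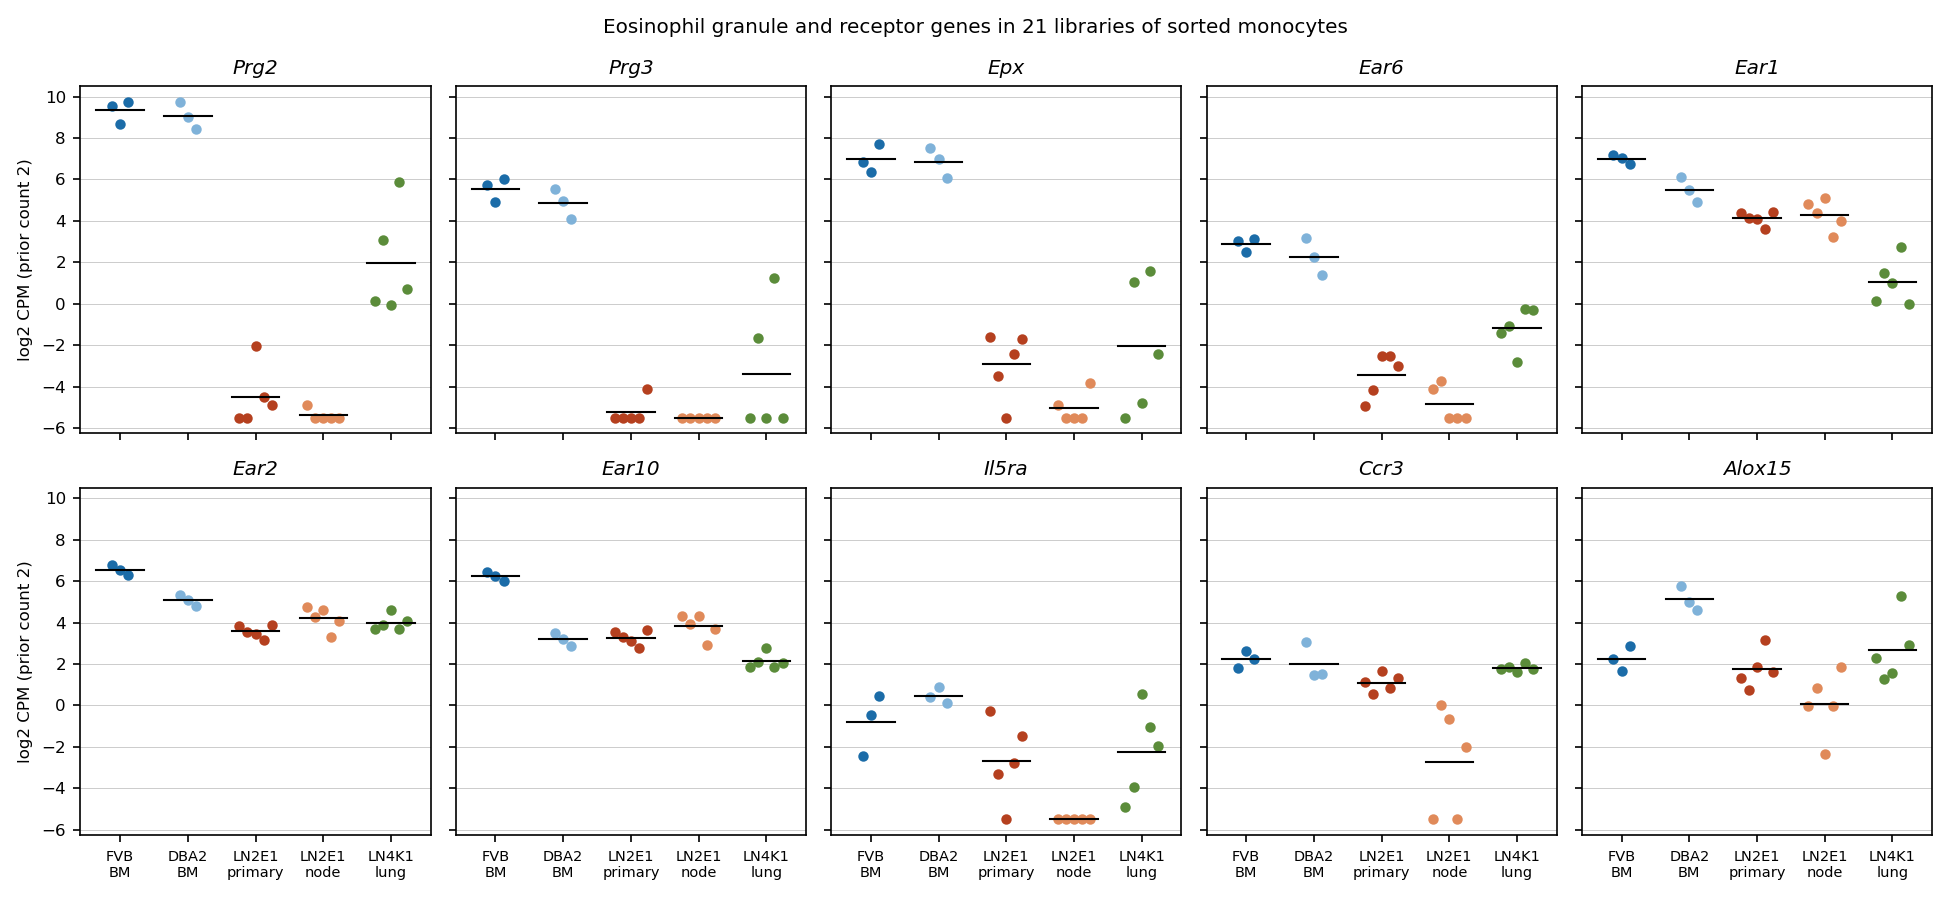
Level of each of the 10 genes in the 21 libraries, as log2 CPM with a prior count of 2, by group; points are libraries and bars are group means. Prg2, Prg3, Epx and Ear6 drop from marrow toward the floor of the scale in LN2E1 TIMs, while Ear1, Ear2 and Ear10 stay well above it.

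Against FVB marrow, lymph node TIMs were lower in the transcripts of all 3 granule proteins. For Prg2, whose 5 node libraries held 1 read together, the mean CPM of marrow was 276700 times the pooled level of that 1 read, with an exact Poisson 95% counting interval from 49650 to 10930000 that covers counting error only. The edgeR adjusted p, a quasi-likelihood p adjusted by Benjamini-Hochberg for the 13273 genes tested, was 4.35e-08 for Prg2. Prg3 was at least 1340-fold lower in the node than in marrow when 3 reads per node library are allowed (edgeR adjusted p = 1.66e-05). Epx fell by 13.28 ± 0.62 (SE) on the log2 scale (edgeR adjusted p = 4.8e-07), a size that rests on 5 node reads, 4 of them in replicate 5, and that was -14.88 without that replicate. These genes had at most 4 reads in a node library, passed the filter on low counts through marrow alone and could only come out lower. The FVB libraries were also used in the choice, so the p-values of these 3 genes are a description only. In each of the 3, every node library was under every marrow library, and the two-sided exact permutation p was 0.0357, the smallest that 5 libraries against 3 can give. Prg3 no longer passed an adjusted p of 0.0001 without FVB BM IM replicate 1 (edgeR adjusted p = 0.000158) or replicate 3 (0.000116).

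Among the ribonucleases, Ear6 was down to 14 reads or fewer in every LN2E1 TIM library, whereas Ear1, Ear2 and Ear10 had at least 613 reads in each of them. This did not hold for the LN4K1 lungs, where the difference from DBA2 marrow was larger for Ear1 than for Ear6. Which cells held the Ear1, Ear2 and Ear10 reads of TIMs was not tested. Ear6 (chr14:51853699-51854643) had 8.11, 5.68 and 8.67 CPM in FVB BM IMs and 9.13, 4.71 and 2.64 CPM in DBA2 BM IMs. It had 1, 3, 13, 14 and 9 reads in primary tumor TIMs, 3, 4, 0, 0 and 0 reads in lymph node TIMs, and 31, 43, 9, 80 and 71 reads in LN4K1 lung TIMs. All 15 TIM libraries were thus under all 6 marrow libraries. In the node, Ear6 fell by 8.63 ± 1.17 (SE) on the log2 scale against FVB marrow (edgeR adjusted p = 0.00032, exact permutation p = 0.0357). With at most 4 reads in a node library, Ear6 passed the filter on low counts through marrow alone and could only come out lower.

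Ear1 (chr14:43818765-43875517, overlapping the pseudogene Ear-ps9 on the same strand) had 146, 131 and 109 CPM in FVB BM IMs and 70.1, 45.5 and 29.7 CPM in DBA2 BM IMs. Primary tumor TIMs had 20.9, 17.8, 17.3, 12.2 and 21.4 CPM, lymph node TIMs 28.1, 21.1, 34.4, 9.37 and 16.0 CPM, and LN4K1 lung TIMs 1.07, 2.78, 1.97, 6.75 and 0.959 CPM. The LN4K1 lung libraries were all under the other 16, and DBA2 marrow overlapped the lymph node range. Between node and FVB marrow, Ear1 fell by 2.56 ± 0.35 (SE) on the log2 scale (edgeR adjusted p = 0.000334), a smaller step than that of Ear6 or Epx.

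Ear2 (chr14:44102654-44103534) had 108, 91.6 and 77.5 CPM in FVB BM IMs and 40.6, 33.7 and 28.2 CPM in DBA2 BM IMs, without overlap. Its TIM values were alike across the tumor groups, with 14.1, 11.7, 10.8, 8.93 and 14.9 CPM in primary tumors, 26.6, 19.2, 24.2, 9.76 and 17.0 CPM in nodes and 13.02, 14.8, 24.7, 13.05 and 16.7 CPM in LN4K1 lungs. All of them were under all marrow libraries, and LN4K1 lungs overlapped both LN2E1 groups. Ear2 fell by 2.25 ± 0.28 (SE) on the log2 scale from FVB marrow to node (edgeR adjusted p = 0.000202).

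Ear10 (chr14:43922720-43923559) had 88.3, 76.5 and 65.5 CPM in FVB BM IMs but 11.4, 9.28 and 7.32 CPM in DBA2 BM IMs. Primary tumor TIMs had 11.6, 9.96, 8.61, 6.77 and 12.6 CPM, lymph node TIMs 19.95, 15.4, 19.8, 7.58 and 12.9 CPM, and LN4K1 lung TIMs 3.65, 4.33, 6.82, 3.58 and 4.08 CPM. DBA2 marrow thus overlapped both LN2E1 tumor groups, and FVB marrow stood alone above all other groups. Ear10 fell by 2.34 ± 0.29 (SE) on the log2 scale from FVB marrow to node (edgeR adjusted p = 0.00017). For Ear1, Ear2 and Ear10 alike, the exact permutation p of that comparison was 0.0357.

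**Figure D2:**
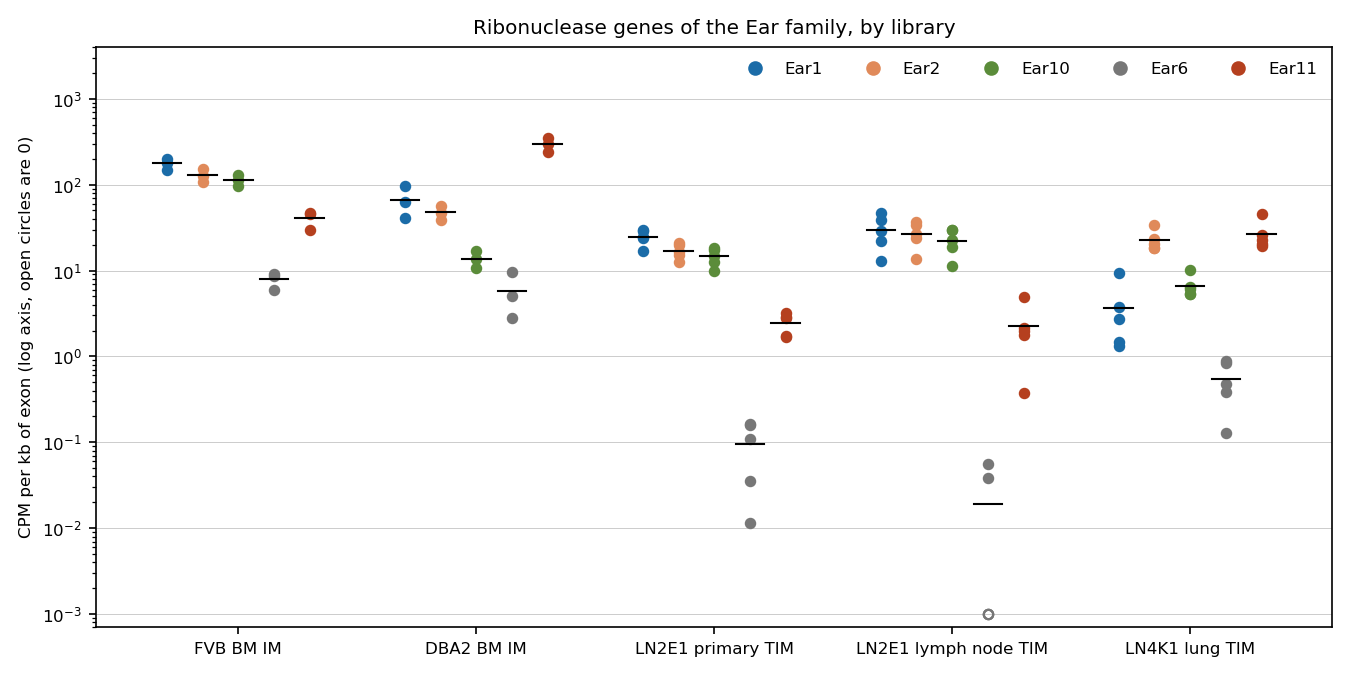
CPM per kilobase of exon (log axis) of the Ear genes in every library, with bars at group means; open circles are libraries with 0 reads, and Ear11 is the count table's older symbol for Rnase2a. Ear1 is the highest of the 5 in FVB marrow and Ear11 the highest in DBA2 marrow, and Ear6 has the lowest mean of the 5 in every group.

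The mix of ribonuclease transcripts differed by strain and tumor. Ear10 had between 58.2% and 60.5% as many reads as Ear1 in FVB marrow, between 49.8% and 58.8% in primary tumors and between 57.7% and 80.8% in nodes. In DBA2 marrow it had between 16.3% and 24.6%, and in LN4K1 lungs, where Ear1 had only 86 to 653 reads, between 53.0% and 426%. Rnase2a, a family member outside the 10 genes that is listed as Ear11, had 27.9 ± 6.55 CPM (SD, n = 3) in FVB marrow and 206 ± 37.5 CPM (SD, n = 3) in DBA2 marrow, so it ran opposite to Ear10 between the strains. Its transcript shared no window of 50 bases with the other genes, whereas 57.4% of those windows of Ear1 were shared. The part of read placement among the copies in these differences was not tested, nor was that of strain differences from the mm10 reference.

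Il5ra (chr6:106710357-106749037) had few reads everywhere. FVB BM IMs had 14, 68 and 154 reads, DBA2 BM IMs 127, 185 and 101 reads, and LN4K1 lung TIMs 1, 4, 105, 45 and 21 reads. Primary tumor TIMs had 74, 7, 0, 11 and 29 reads, and lymph node TIMs had 0 reads in all 5 libraries. Only the node was separated from marrow of its own strain. Every pair of neighbours in the order DBA2 marrow, FVB marrow, LN4K1 lung, primary tumor and node overlapped. Il5ra was at least 20.2-fold lower in the node than in FVB marrow with 3 reads allowed per library (edgeR adjusted p = 0.0105, exact permutation p = 0.0357). With 0 node reads, Il5ra passed the filter on low counts through marrow alone and could only come out lower.

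Ccr3 (chr9:124021972-124031689) had 3.52, 6.12 and 4.67 CPM in FVB BM IMs and 8.45, 2.70 and 2.87 CPM in DBA2 BM IMs. Primary tumor TIMs had 2.18, 1.45, 3.19, 1.75 and 2.51 CPM and LN4K1 lung TIMs 3.36, 3.55, 3.07, 4.14 and 3.41 CPM. Lymph node TIMs had 0, 74, 51, 0 and 19 reads, or at most 0.980 CPM, under every other library of the 21. Against marrow of their own strain, LN4K1 lungs overlapped DBA2 marrow, and primary tumors, with at most 3.19 CPM, lay under FVB marrow. Against FVB marrow, node Ccr3 differed by -3.71 ± 1.44 (SE) on the log2 scale with an edgeR adjusted p of 0.0695, whereas the exact permutation p was 0.0357. Without lymph node replicate 1 the edgeR adjusted p was 0.0306.

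Alox15 (chr11:70344152-70352031) was highest in DBA2 marrow, unlike the granule genes, whose marrow ranges overlapped between the strains. DBA2 BM IMs had 55.0, 32.1 and 24.3 CPM and FVB BM IMs had 4.75, 3.17 and 7.19 CPM. LN4K1 lung TIMs had 4.82, 2.43, 2.94, 38.5 and 7.46 CPM, primary tumor TIMs 2.48, 1.67, 3.55, 8.96 and 3.06 CPM and lymph node TIMs 0.969, 1.79, 0.178, 0.948 and 3.66 CPM. Every group except DBA2 marrow overlapped FVB marrow, and DBA2 marrow overlapped LN4K1 lung through replicate 4 alone. Alox15 of the node differed from FVB marrow by -1.75 ± 0.80 (SE) on the log2 scale, which did not pass (edgeR adjusted p = 0.117; exact permutation p = 0.0714), and the edgeR adjusted p was 0.0451 without lymph node replicate 5.

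The labels do not say whether lymph node and primary tumor libraries of LN2E1 share mice, and the tests treat them as separate. Between lymph node and primary tumor TIMs of LN2E1, reads of Prg2, Prg3, Epx, Ear6 and Il5ra were too few for the edgeR filter, and the other 5 genes were tested. None of the 5 was called at an adjusted p under 0.05, against 11.7% of the 13488 genes tested in either direction. Ear2 and Ear10 had an unadjusted p under 0.05 there, and DESeq2, which applied no such filter, called 1 of the 10 at an adjusted p under 0.05 and 6 at an unadjusted p under 0.05. Ear2 was higher in the node by 0.69 ± 0.26 (SE) and Ear10 by 0.62 ± 0.27 (SE) on the log2 scale, with edgeR adjusted p of 0.11 and 0.174, and both were under 0.05 without lymph node replicate 4. Ear1 differed by 0.29 ± 0.30 (SE) with an edgeR adjusted p of 0.606. Ccr3 was lower in every node library than in every primary tumor library, by -2.60 ± 1.24 (SE) on the log2 scale, with an edgeR adjusted p of 0.214 and an exact permutation p of 0.00794, the smallest that 5 against 5 can give. Il5ra had an exact permutation p of 0.0476 and was at least 7.24-fold lower in the node. Epx and Ear6 each had 0.0556, Alox15 0.0714, Ear2 0.0635, Ear10 0.0952, Prg2 0.286, Ear1 0.643 and Prg3 0.952 in the same exact permutation test, so 2 of the 10 single tests were under 0.05, before any correction for their number.

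Read across the comparisons of TIMs with marrow, all 10 genes passed the filter on low counts and had a lower mean in TIMs. Against the node, Prg2, Prg3, Epx, Ear6 and Il5ra, with at most 4 reads in a node library, passed it through FVB marrow alone and so had to differ, and the FVB libraries were used in the choice, so the counts for the node are a description as well. From FVB marrow to lymph node, 3 of the 10 (Prg2, Prg3 and Epx) were lower at the study's thresholds, an adjusted p under 0.0001 together with a log2 fold change beyond 1 in size, against 1.70% of the 13273 genes tested. At an adjusted p under 0.05 alone, 8 of the 10 were lower, against 17.2% of all genes, and 9 of the 10 had every node library under every marrow library, against 22.8%. From FVB marrow to primary tumor, 7 of the 10 were lower at the study's thresholds (5.18% of 14569 genes), 8 at an adjusted p under 0.05 (28.6%), and 8 did not overlap (27.3%). From DBA2 marrow to LN4K1 lung, 0 of the 10 were lower at the study's thresholds by edgeR (1.76% of 13624 genes), 7 at an adjusted p under 0.05 (11.0%), and 7 did not overlap (14.9%), while at the study's thresholds DESeq2 called 3. Without DBA2 BM IM replicate 1, the calls of Prg2, Prg3 and Ear10 at 0.05 were lost in LN4K1 lungs. Calls at 0.05 were gained there for Il5ra without LN4K1 lung replicate 3 and for Alox15 without LN4K1 lung replicate 4. The latter 2 comparisons are among those the genes were chosen with, so nothing is read from their counts. Of all genes tested, 20.2% rose at an adjusted p under 0.05 from FVB marrow to node, 33.3% from FVB marrow to primary tumor and 13.9% from DBA2 marrow to LN4K1 lung, and none of the 10 did by edgeR.

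**Figure D3:**
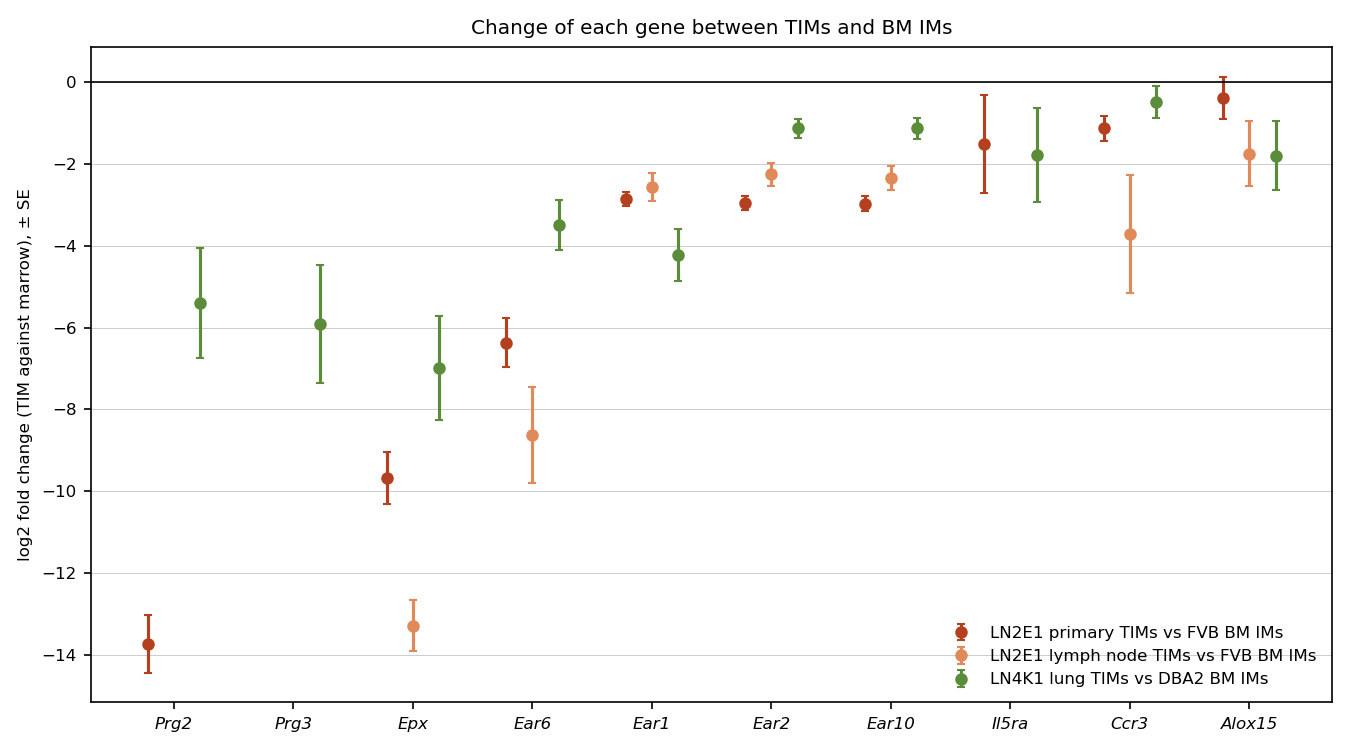
Difference between TIMs and marrow of the same strain for each gene, as the log2 fold change of edgeR with its standard error, in 3 comparisons; values are left out where every TIM library held at most 3 reads. Prg2 and Epx lie at -9.67 or lower in LN2E1 primary tumors, while Ear1, Ear2 and Ear10 lie between -2.97 and -1.13 except for Ear1 in LN4K1 lung at -4.23.

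Side by side, the descriptive differences between primary tumor and FVB marrow and between LN4K1 lung and DBA2 marrow were -13.72 ± 0.71 (SE) and -5.40 ± 1.35 on the log2 scale for Prg2, and -9.67 ± 0.63 and -6.99 ± 1.27 for Epx. For Prg3, whose primary tumor libraries held 3 reads together, FVB marrow was 7309 times the pooled level of those reads, with a counting interval from 2501 to 35440, and DBA2 marrow was 58.2 times higher than LN4K1 lung by the ratio of means. Primary tumor replicate 3 held 19 of the 22 primary tumor reads of Prg2, and its difference was -16.12 without that library. Ear6 differed by -6.37 ± 0.60 and -3.50 ± 0.61, Ear2 by -2.95 ± 0.17 and -1.13 ± 0.23, and Ear10 by -2.97 ± 0.19 and -1.13 ± 0.26. For Ear1 the difference was larger in the LN4K1 model, with -2.86 ± 0.17 in the LN2E1 model and -4.23 ± 0.63 in the LN4K1 model. Ccr3 differed by -1.13 ± 0.31 and -0.49 ± 0.39, Il5ra by -1.51 ± 1.20 and -1.78 ± 1.14 and Alox15 by -0.38 ± 0.51 and -1.80 ± 0.84. In the difference between the models, 5 of the 10 passed an adjusted p of 0.05, against 26.5% of 15182 genes, and between the marrows 4 of the 10 did, against 21.1% of 12905 genes. The genes were chosen with these values, so nothing is read from either count. Between the models, the calls of Prg3 and Ear6 were lost in 12 and 8 of the 16 fits that each left out 1 library.

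LN4K1 lung replicate 4 held most of the granule RNA of its group. Of the 6880 Prg2 reads in the 5 LN4K1 lung libraries, 5763 were in replicate 4, as were 231 of the 259 Prg3 reads and 3722 of the 5255 Alox15 reads. It was also the highest of its group in Epx, Ear1, Ear6 and Ccr3, but not in Ear2, Ear10 or Il5ra. Without this replicate, the difference from DBA2 marrow was -7.62 in place of -5.40 on the log2 scale for Prg2, -8.68 in place of -5.91 for Prg3 and -3.15 in place of -1.80 for Alox15. The difference between the models was then -6.08 in place of -8.31 for Prg2 and -3.90 in place of -6.68 for Prg3. Single primary tumor libraries moved it the other way, to -10.71 for Prg2 without replicate 3 and to -9.27 for Prg3 without replicate 5. Neutrophil precursor markers summed to 240 CPM in this library and to between 236 and 647 CPM in the other 4, and alveolar macrophage markers to 21.8 CPM against between 5.23 and 8.04 CPM. Their part in the high granule reads was not tested.

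Genes around eosinophil development and traffic were described from lists. Of 9 transcription factors of the lineage, 4 rose and 1 fell from FVB marrow to node at an adjusted p under 0.05, with a median of -0.19 on the log2 scale against -0.04 over all genes. For these and the following counts, 20.2% of all genes rose and 17.2% fell from FVB marrow to node, 33.3% and 28.6% to primary tumor, and 13.9% and 11.0% from DBA2 marrow to LN4K1 lung. Gata1, which drives eosinophil fate, was the one that fell, with 2.96 ± 0.654 CPM (SD, n = 3) in FVB marrow and at most 1 read in any node library (edgeR adjusted p = 0.000236). Gata1 passed the filter on low counts through marrow alone and could only come out lower. Gata2, Cebpe and Cebpa did not pass, with log2 differences of -0.19 ± 1.33 (SE), -0.99 ± 0.60 and -0.51 ± 0.35. In primary tumors 4 of the 9 rose and 2 fell, and in LN4K1 lungs 2 rose and 1 fell. From FVB marrow to primary tumor Gata1 fell by 3.62 ± 0.87 (SE) and Cebpe, needed for the making of granules, by 1.38 ± 0.36 on the log2 scale (edgeR adjusted p = 0.00522 and 0.00756). Gata2 and Cebpa did not pass there, with log2 differences of 0.80 ± 0.55 (SE) and 0.26 ± 0.44. The 4 that rose there were Trib1 by 2.91 ± 0.19 (SE), Id2 by 0.79 ± 0.15, Xbp1 by 0.44 ± 0.13 and Spi1 by 0.42 ± 0.09.

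Of 7 subunits of receptors for eosinophil cytokines, 5 rose and 1 fell from FVB marrow to node, with a median difference of 2.95 on the log2 scale against -0.04 over all genes. Csf2rb, the common beta chain that pairs with the product of Il5ra, rose by 1.65 ± 0.15 (SE) (edgeR adjusted p = 2.64e-05), from 167 ± 4.56 CPM (SD, n = 3) to 525 ± 87.5 CPM (SD, n = 5). Its mouse paralog Csf2rb2 rose by 2.95 ± 0.24 (edgeR adjusted p = 1.31e-05), Csf2ra did not pass (edgeR adjusted p = 0.0522), and Il3ra fell by 1.21 ± 0.27 (edgeR adjusted p = 0.00587). The common chain and Il5ra thus had opposite directions in the same libraries. In primary tumors and LN4K1 lungs, 5 and 4 of the 7 rose and 1 fell.

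Of 11 ligands, 6 were tested from FVB marrow to node and 2 rose, 8 were tested in primary tumors and 6 rose, and 6 were tested in LN4K1 lungs and 4 rose. The ligands, with Ccl7 the most abundant in TIMs, summed to between 1.05 and 5.33 CPM in FVB marrow, between 0.848 and 2.55 CPM in DBA2 marrow and between 40.8 and 162 CPM in TIMs. Il5 itself had 0 reads in all libraries but 2, with at most 16, and Il3 had 0 in all 21. The eotaxin Ccl11 had 0 reads in all marrow and node libraries and 0.877 ± 0.680 CPM (SD, n = 5) in primary tumors.

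Of 8 surface genes of eosinophils, 7 were tested from FVB marrow to node, where 3 rose and 2 fell. The gene for Siglec-F, taken from the row Siglec5 because RefSeq lists that symbol as a synonym, a match that is not certain, had 3.92, 2.55 and 7.89 CPM in FVB marrow and 10.4, 6.14 and 2.59 CPM in DBA2 marrow. It had between 1.47 and 3.84 CPM in primary tumors, between 1.08 and 4.70 CPM in LN4K1 lungs, and between 0 and 0.813 CPM in nodes (edgeR adjusted p = 0.0691 against FVB marrow). Reads of this row were thus counted in all 16 libraries outside the node. Cd24a fell by 2.26 ± 0.29 (SE) on the log2 scale (edgeR adjusted p = 0.000203). Of 9 lipoxygenase pathway genes, 8 were tested and 1 rose and 2 fell in the node, among them Alox5 by 1.34 ± 0.16 (SE) (edgeR adjusted p = 0.000134), while Alox5ap and Alox12 did not pass. Of the other Ear genes, 7 rows were in the table, 5 had 0 reads throughout, and of the 2 tested Rnase2a fell by 4.17 ± 0.62 (SE) (edgeR adjusted p = 0.000544) and Ear5 did not pass.

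Markers of other marrow cells moved with the granule genes. The 9 neutrophil precursor markers summed to between 4229 and 5159 CPM in FVB marrow and between 2896 and 3547 CPM in DBA2 marrow, against between 50.9 and 197 CPM in primary tumors, between 24.3 and 130 CPM in nodes and between 236 and 647 CPM in LN4K1 lungs. From FVB marrow to node 8 of the 9 fell, and Elane, the neutrophil elastase, fell by 9 ± 0.96 (SE) on the log2 scale (edgeR adjusted p = 6.66e-05). Mki67, made by dividing cells, had 193 ± 12.2 CPM (SD, n = 3) in FVB marrow, 244.5 ± 9.89 CPM (SD, n = 3) in DBA2 marrow and between 4.66 and 12.9 CPM in TIMs. By the precursor sum and by Mki67, every marrow library thus stood above every TIM library. Lcn2, one of the 9 markers, was an exception. It had between 52.4 and 146.6 CPM in LN4K1 lungs and between 59.9 and 113.4 CPM in DBA2 marrow. The part of such cells in the marrow level of the eosinophil genes was not tested.

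The 11 basophil and mast cell markers did not move as one. Hdc, the histidine decarboxylase, rose by 2.71 ± 0.26 (SE) on the log2 scale from FVB marrow to primary tumor and by 2.77 ± 0.26 to node (edgeR adjusted p = 2.13e-05 and 2.59e-05), and it carried most of the list's RNA in primary tumors, with a mean of 104.7 CPM against 15.8 CPM in FVB marrow. The proteases went the other way in primary tumors, where Prss34 fell by 9.06 ± 0.83 (SE) and Mcpt8 fell by 3.59 ± 0.54 (edgeR adjusted p = 2.01e-05 and 0.000382), as did Cpa3, Fcer1a and Ms4a2. In all, 1 of the 9 genes tested rose and 5 fell in primary tumors, 1 of 8 rose and 2 fell in LN4K1 lungs, and 1 of 8 rose and none fell in nodes. Prss34 had 158.1 ± 19.6 CPM (SD, n = 3) in FVB marrow and a median of 0 in nodes, where 1 library, replicate 1, held 240.6 CPM. The same replicate held the highest node values of Mcpt8, Cpa3 and Fcer1a, at 136.8, 42.1 and 35.2 CPM. Their node medians were 8.50, 0.948 and 0.867 CPM, against FVB marrow medians of 73.3, 9.33 and 4.97 CPM. That none fell in nodes thus rests on fits with this replicate, and the list was not refitted without it. The whole list summed to between 248 and 300 CPM in FVB marrow, 14.4 and 30.4 CPM in DBA2 marrow, 81.8 and 155 CPM in primary tumors, 6.05 and 16.7 CPM in LN4K1 lungs, and 85.6 and 157 CPM in nodes other than replicate 1, which had 548 CPM and held 1 Prg2 read.

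Other lists gave a coarser view of the sorted cells. The 9 alveolar macrophage markers summed to between 6.01 and 10.1 CPM in marrow, 17.2 and 29.0 CPM in primary tumors, 35.5 and 80.5 CPM in nodes and 5.23 and 21.8 CPM in LN4K1 lungs, with Krt79 at 0 in marrow and node, and Pparg carried the largest share of that sum outside FVB marrow. Red cell markers summed to at most 5.49 CPM in any library, and the 3 progenitor markers went apart, as Mki67 fell and Flt3 rose by 2.58 ± 0.36 (SE) on the log2 scale from FVB marrow to node (edgeR adjusted p = 1.57e-06 and 0.000397) and Cd34 fell (edgeR adjusted p = 0.0326), with sums between 219 and 282 CPM in marrow and between 33.7 and 78.8 CPM in TIMs. Mature neutrophil markers summed to between 278 and 494 CPM in marrow and between 287 and 812 CPM in TIMs, most of it Csf3r, which monocytes also express. Retnlg, more particular to neutrophils, fell by 4.45 ± 1.44 (SE) on the log2 scale from FVB marrow to node (edgeR adjusted p = 0.0351) and by 2.03 ± 0.51 from DBA2 marrow to LN4K1 lung (edgeR adjusted p = 0.0185). Cxcr2, also of this list, had higher means in LN2E1 TIMs, 27.3 CPM in primary tumors and 8.3 CPM in nodes, against 2.12 CPM in FVB marrow. In LN4K1 lungs it had 2.65 CPM, against 2.93 CPM in DBA2 marrow. Of the 3 markers tested, 2 rose and 1 fell in nodes, 2 rose and 0 fell in primary tumors, and 0 rose and 1 fell in LN4K1 lungs. Nonclassical monocyte markers summed to between 386 and 941 CPM in marrow and between 2045 and 3851 CPM in TIMs. The largest part in TIMs was Nr4a1, with means of 1939 CPM in primary tumors, 1474 CPM in nodes and 2319 CPM in LN4K1 lungs. Of the 7 markers, 4 rose and 2 fell in primary tumors and likewise in LN4K1 lungs, and 6 rose and 0 fell in nodes. Resident macrophage markers, mostly Adgre1, summed to between 123 and 197 CPM in marrow and between 190 and 367 CPM in TIMs. Of the 8 inflammatory monocyte markers, 3 rose and 3 fell from FVB marrow to node. The part of any of these cells in the eosinophil genes was not tested.

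**Figure D4:**
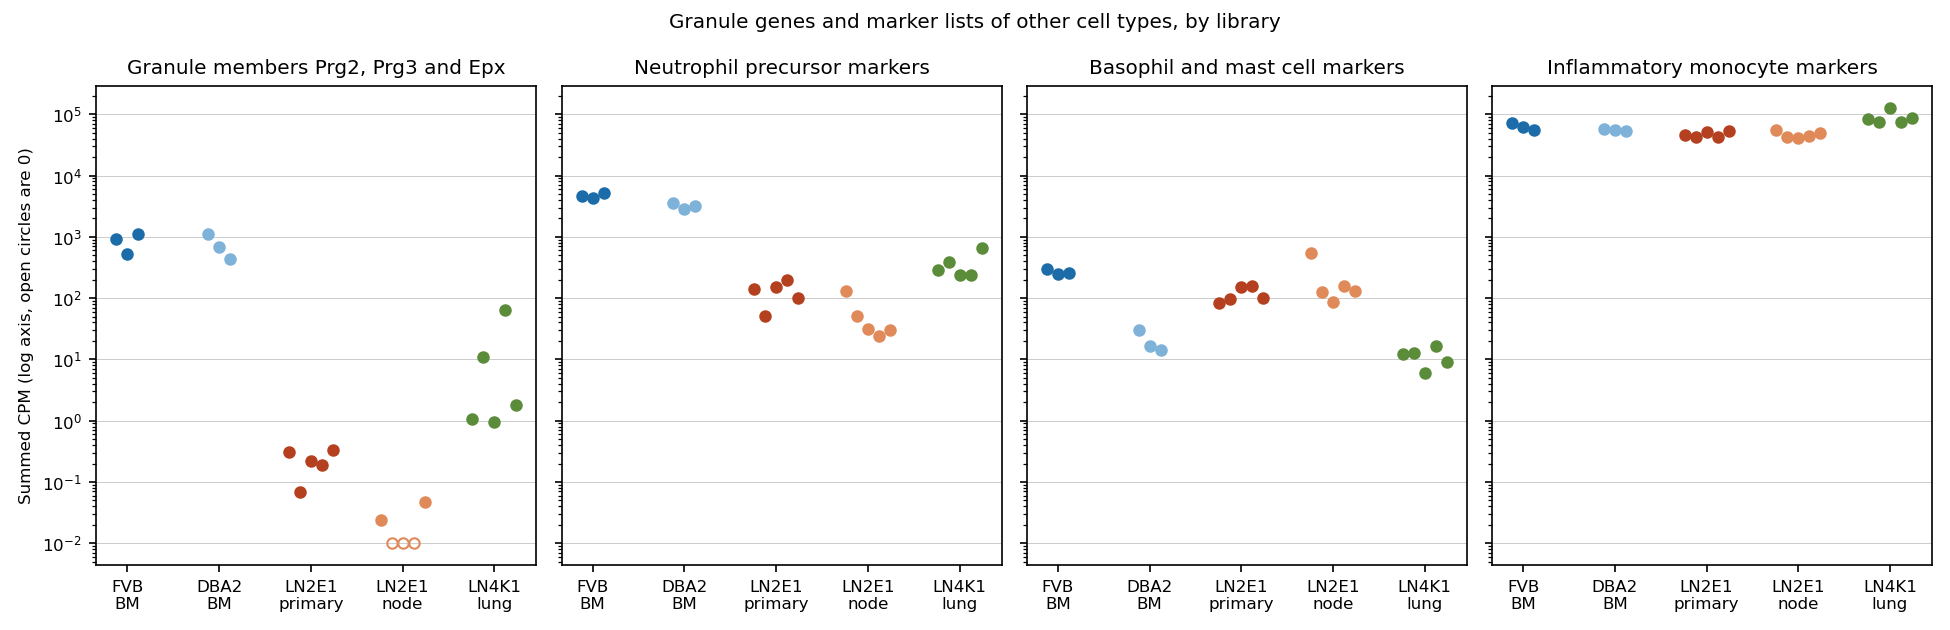
Summed CPM (log axis) of Prg2, Prg3 and Epx and of the marker lists of neutrophil precursors, basophils and mast cells, and inflammatory monocytes in each of the 21 libraries, by group; open circles are sums of 0. Granule and neutrophil precursor sums drop from marrow to TIMs, basophil sums in LN2E1 primary tumors are mostly Hdc, 1 node library stands at 548 CPM, and the monocyte sum, mostly Lyz2, is at least 40300 CPM in every library.

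The genes whose log2 CPM most resembled each leading member over the 21 libraries were found among 14596 genes with at least 10 reads in at least 5 libraries; the libraries of a group share source and depth, so these correlations are a description. Prg2 was most like Prtn3, itself one of the neutrophil precursor markers, Lbr, Nfe2, Brd3 and Cd300lg, with Pearson r between 0.966 and 0.947. Epx was most like Scml2, Aurkb, Hist1h3g, Rrm2 and Nup85 (r between 0.959 and 0.953), and Ear2 like Rdm1, Nxt1, Pcna, Lsm5 and Ranbp1 (r between 0.939 and 0.929). Alox15 had weaker matches, BC037032, 1700001K23Rik, H1f0, Klhdc4 and Padi4, with r between 0.819 and 0.797. Among the 10 genes, Prg2 had r of 0.94 with Prg3, 0.91 with Epx and 0.96 with Ear6, 0.72 with Ear2, 0.36 with Ear1 and 0.29 with Ear10, and between 0.60 and 0.69 with Il5ra, Ccr3 and Alox15.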

How the data were processed

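RNA-seq counts of 21 libraries were used. The authors deposited raw read counts for 23420 gene symbols; per their methods and processing notes, reads were aligned to mm10 with BBMap, handled with samtools 1.8 and counted with featureCounts 1.5.2, from libraries without strand information. The gene annotation and the counting settings are not given in the sources used here. All counts were whole numbers, no column lacked a sample, and every pair of replicates differed by more than sampling noise. CPM used TMM factors over all libraries, and log2 CPM added a prior count of 2. For every comparison, only the libraries of its groups entered edgeR 4.0.16 in R 4.3.3 (filterByExpr at its defaults, with counts of at least 10 and totals of at least 15; robust quasi-likelihood test; Benjamini-Hochberg adjustment for all genes tested). The standard error is the absolute log2 fold change divided by the square root of F, an approximation. Single genes were tested with two-sided exact permutation tests of mean log2 CPM (scipy 1.17.1). The fit was also run on simulated counts. The changes put into them were smaller than those of Prg2, Prg3 and Epx against marrow, so such drops were not covered. Alternatives were DESeq2 1.42.0, its size factors, no filter, a prior count of 0.5, all 5 groups in 1 fit, the replicate number as a block, other thresholds, and leaving out each library. Gene positions and transcripts came from GENCODE vM21 (GRCm38) and were used for names, lengths and sequences only. Exon lengths are the union of a gene's exons. Of 116 list genes, 7 were matched by RefSeq synonyms and 3 (Ear8, Ly6g and Hbb-bt) were not matched. Named were all 10 genes, up to the first 4 genes of a list, and the 5 genes most like each of Prg2, Epx, Ear2 and Alox15. Rnase2a, Hdc, Ms4a2, Ccl7, Pparg, Lyz2, Lcn2, Trib1, Id2, Xbp1 and Spi1 were added after their values were seen. The genes and lists were chosen with earlier results of these data known.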

Additional observations from a re-analysis of the deposited data

Results flagged for a closer look

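In 26 sets of 5 TIM libraries, 1 per gene and tumor group with more than the limiting reads, the highest or lowest library was compared with the others by Dixon's ratio of its gap to the range on the log2 scale. For normally spread values, chance flags about 1 in 20 such sets. That rate need not hold for sets with libraries tied at 0 reads, where the ratio depends on the prior count. One library stood out: primary tumor replicate 3 had 0.221 CPM of Prg2, or 19 reads, against between 0 and 0.0221 CPM in the other 4, with a gap that took 0.71 of the range. Its Prg3 and Epx counts were both 0. This Prg2 set held such ties.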

How the results depend on the processing

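The smallest values rest on few reads, and the Ear1, Ear2 and Ear10 counts on how reads of near copies were placed. No result changed direction under the alternatives where it was called. From FVB marrow to lymph node, 3 of the 10 genes were called lower at the study's thresholds, 5 without the filter on low counts, 7 by DESeq2, 6 with all 5 groups in 1 fit and 8 at an adjusted p under 0.05 alone. From DBA2 marrow to LN4K1 lung, edgeR called 0, DESeq2 3, all 5 groups in 1 fit 2, and an adjusted p under 0.05 alone 7. Between the marrows 1 gene was called, 4 by DESeq2 and 4 at an adjusted p under 0.05 alone. Over all genes, the study's thresholds called 758 genes in nodes, 2419 by DESeq2 and 1947 with all 5 groups in 1 fit, 1879 in primary tumors and 4025 by DESeq2, and 405 in LN4K1 lungs, 1602 by DESeq2, 797 with all 5 groups in 1 fit and 840 without LN4K1 lung replicate 3. DESeq2, which kept rarer genes, moved the median of all genes from 0.08 to 0.34 on the log2 scale in primary tumors. In the difference between the models, 5 were called, and 0 at the study's thresholds.

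With the replicate number as a block, calls at the study's thresholds fell from 7 to 0 in primary tumors, from 3 to 0 in nodes and from 1 to 0 between the marrows, and those thresholds then called 0 genes of the whole table from FVB marrow to node. Same-numbered libraries of compared groups did not all correlate above 0.1 in their deviations from the group means. The correlations lay between -0.30 and 0.08 for FVB marrow with primary tumors. For FVB marrow with nodes they lay between 0.08 and 0.30, and 2 of 3 correlated best with their own number. Marrow came from tumor-free mice, so these pairs cannot share mice. Primary tumors and nodes may share mice, which the labels do not say. Their correlations lay between -0.19 and 0.15, and 1 of 5 was best with its own number. A call lost under the block is therefore not described as a weaker effect.

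Leaving out each library in turn gave between 6 and 7 calls in primary tumors, 2 and 3 in nodes, 0 and 0 in LN4K1 lungs, 0 and 0 between node and primary tumor, 0 and 1 between the marrows, and 3 and 5 between the models. The call of Ear6 in primary tumors was lost without FVB BM IM replicate 1 or primary tumor replicate 5, and that of Ear10 between the marrows in 5 of 6 fits. Il5ra differed from DBA2 marrow by -2.97 in place of -1.78 on the log2 scale without LN4K1 lung replicate 3. By the exact permutation test, 9 genes were under 0.05 from FVB marrow to node, and between 0 and 0 with 1 library left out, because so few libraries cannot reach 0.05. From primary tumor to node 2 were, and between 1 and 3 with 1 library left out.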
